A study of Xenopus laevis with 25 samples.

Results

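The genes described here are rpap3, its partners in the R2TP co-chaperone complex (ruvbl1, ruvbl2, pih1d1) and the cytoplasmic factors that build axonemal dyneins (spag1, dnaaf1, dnaaf2, dnaaf5, lrrc6, zmynd10). rpap3 was selected because earlier results of these data gave it a large difference between the arms, so its arm values are a description with no test, and the others were named by function. Symbols in the authors' 12 hpf comparison table gave 14 transcripts for 9 of the 10 genes, out of 22891 transcripts in all, and dnaaf1 is not analysed here. All 14 passed the filter on low counts, which kept 16967 transcripts. Both of the lrrc6 transcripts of 1572 nt held identical values in every library, so their reads could not be told apart. They count as 1 transcript in every count of calls, while the summed level of lrrc6 adds both.

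Whole Xenopus embryos were sampled at 5 times, every hour from 12 to 16 hours post fertilization (hpf), and poly-A RNA was sequenced. Wild-type embryos gave 2 libraries an hour (10 in all), and embryos injected with a morpholino against RNF20 gave 3 libraries an hour (15 in all). A morpholino is an antisense oligonucleotide that blocks translation or splicing of its target, and RNF20 is an E3 ligase that adds ubiquitin to histone H2B. The labels name no control morpholino, no dose and no number of embryos pooled, so injection and loss of RNF20 cannot be told apart in the morpholino arm.

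R2TP is a co-chaperone of HSP90. RPAP3 holds HSP90 and HSP70 through its TPR domains, RUVBL1 and RUVBL2 form an ATPase ring, and PIH1D1 recruits clients, among them RNA polymerase II, box C/D snoRNPs, U5 snRNP and the PIKK kinases. In ciliated cells related complexes, in which SPAG1 brings its own TPR domains and DNAAF2 its PIH domain, fold axonemal dynein chains in the cytoplasm before the arms are carried into the cilium. In humans, loss of SPAG1, DNAAF2, DNAAF5, LRRC6 or ZMYND10 causes primary ciliary dyskinesia, in which cilia lack dynein arms.

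Total estimated counts ran from 12757711 to 36150636 a library. TMM factors, which rescale each library for its composition, were at least 1 and at most 1.14 in wild type, from 0.945 to 1.09 in morpholino replicates 1 and 2, and from 0.673 to 0.900 in morpholino replicate 3, whose 16 hpf library had the lowest factor. Levels are given either as TPM, which corrects for transcript length, or as CPM, counts brought to a common library size with the TMM factors, on which the fits rest. The targeted gene, rnf20, averaged 61.7 CPM (SD 13.5, n = 10) in the wild-type arm against 75.6 CPM (SD 11.9, n = 15) with the morpholino, and the labels do not say whether the oligonucleotide blocks translation or splicing. Of 16 germ layer, ciliated cell and general markers, 15 were found, and none was at 0 in any library. In whole embryos, fewer cells of a type and less RNA per cell cannot be told apart.

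rpap3 transcript was lower in every morpholino library than in any wild-type library. Wild-type embryos held 41.2 and 37.1 TPM of rpap3 at 12 hpf, 42.8 and 35.9 at 13 hpf, 42.1 and 40.1 at 14 hpf, 41.1 and 38.7 at 15 hpf, and 39.3 and 40.0 at 16 hpf. Morpholino embryos held 8.76, 8.35 and 11.7 TPM of rpap3 at 12 hpf, 9.49, 9.62 and 10.9 at 13 hpf, 9.85, 7.35 and 7.07 at 14 hpf, 7.24, 13.4 and 4.80 at 15 hpf, and 7.08, 12.9 and 4.73 at 16 hpf. The arms were apart at all 5 hours: the highest morpholino library, replicate 2 at 15 hpf, lay far below the lowest wild-type library, replicate 2 at 13 hpf. Wild-type libraries varied little and the morpholino libraries of 15 and 16 hpf spread most, with replicate 2 high and replicate 3 low in TPM. In CPM morpholino replicate 3 at 16 hpf held 14.1, between replicate 1 (10.8) and replicate 2 (19.6).

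The mean rpap3 level was 39.8 TPM ± 2.16 (SD, n = 10) in wild type and 8.88 TPM ± 2.62 (SD, n = 15) in morpholino embryos. In estimated counts rpap3 ranged from 884 to 1469 a library in wild type and from 167 to 458 in the morpholino arm, so no value rests on a handful of reads. Averaged over the hours, the log2 difference of rpap3 (morpholino minus wild type, in CPM) was -2.01 ± 0.13 (SE). The hourly log2 differences of rpap3 were -1.90, -1.78, -2.25, -2.13 and -1.99 from 12 to 16 hpf. The authors' deposited table gives the matching rpap3 values, turned here to log2 morpholino minus wild type, as -1.92, -1.78, -2.24, -2.18 and -1.94. Of the 11702 tested transcripts that had a symbol and an edgeR average log2 CPM of 1 or more, rpap3 ranked 35 by how much lower it was. Morpholino values below every wild-type value, as for rpap3, occurred in 127 of the 16967 transcripts (0.749%), and rpap3 was picked for that contrast.

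**Figure D1:**
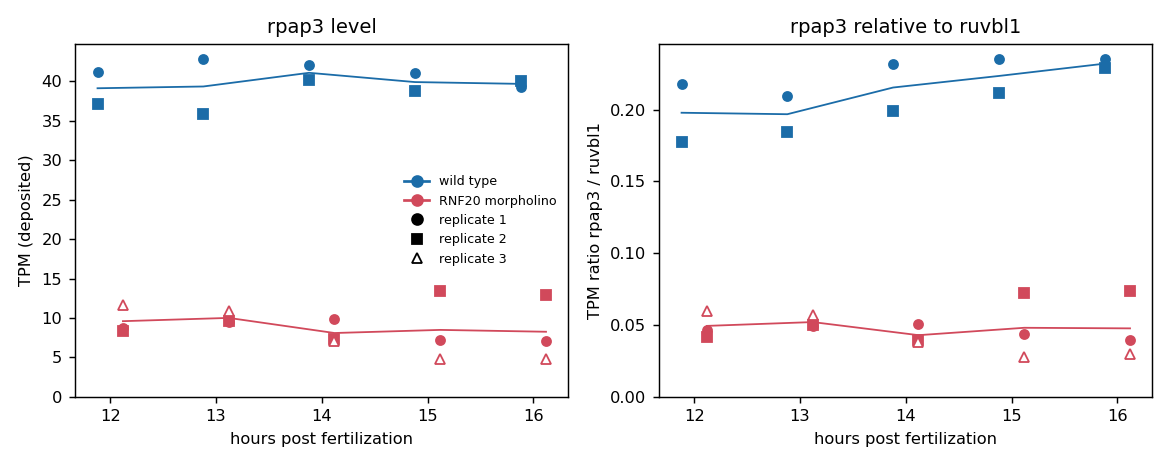
rpap3 level in TPM (left) and its TPM ratio to summed ruvbl1 (right) against hours post fertilization. Each point is a library, lines join the means of each arm, and all morpholino points (4.73 to 13.4 TPM) lie below all wild-type points (35.9 to 42.8 TPM).

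The time course of rpap3 was not used to choose it. Its wild-type slope was -0.02 ± 0.07 log2 units per hour (SE, edgeR adjusted p = 0.931) and its morpholino slope was -0.07 ± 0.06 (edgeR adjusted p = 0.412). Neither slope passed the threshold of an adjusted p under 0.05. The rpap3 slopes differed between the arms by -0.05 ± 0.09 log2 units per hour (SE).

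The proportions of the R2TP transcripts differed between the arms. In wild type the summed TPM were, in order, ruvbl2 (215 ± 15.1, SD, n = 10), ruvbl1 (188 ± 14.1), spag1 (68.2 ± 4.25), rpap3 (39.8 ± 2.16), zmynd10 (34.1 ± 3.96), dnaaf2 (28.8 ± 4.06), dnaaf5 (20.3 ± 2.26), pih1d1 (19.9 ± 2.77) and lrrc6 (19.2 ± 1.89). Only the steps from ruvbl1 to spag1 and from spag1 to rpap3 separated neighbours in that order without overlap of their wild-type libraries. In morpholino embryos rpap3 was the lowest of the 9 genes, below pih1d1 (14.2 ± 3.68 TPM, SD, n = 15), dnaaf5 (15.3 ± 3.89) and lrrc6 (18.3 ± 4.74), although its range overlapped theirs. The TPM ratio of rpap3 to ruvbl1 was 0.213 ± 0.0208 in wild type (0.178 to 0.235) and 0.0480 ± 0.0134 in morpholino embryos (0.0279 to 0.0737), with no overlap. The TPM ratio of rpap3 to pih1d1 was 2.05 ± 0.374 in wild type (1.59 to 2.64) and 0.675 ± 0.333 in morpholino embryos (0.382 to 1.62), so the arms overlapped at 1 library, morpholino replicate 3 at 12 hpf. These ratios were looked at after the values were seen and use the level that picked rpap3, so they carry no test.

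Of the 12 distinct transcripts other than rpap3, 4 were called on the average arm difference (33.3%): spag1 (3505 nt), zmynd10 and dnaaf5 were lower in morpholino embryos and spag1 (1691 nt) was higher. Over all tested transcripts 27% were called, 13.1% lower and 13.9% higher, so the share among these genes is near the background. By DESeq2 the calls were 3 higher and 3 lower (50%), with 5683 called over all transcripts against 4581 by edgeR. Without the 5 libraries of morpholino replicate 3, the edgeR calls were 2 higher and 2 lower, with 6134 called over all transcripts. With scaling by library size alone they were 1 higher and 4 lower, with 4169 called over all. That scaling moved the median log2 difference of all transcripts by -0.154.

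**Figure D2:**
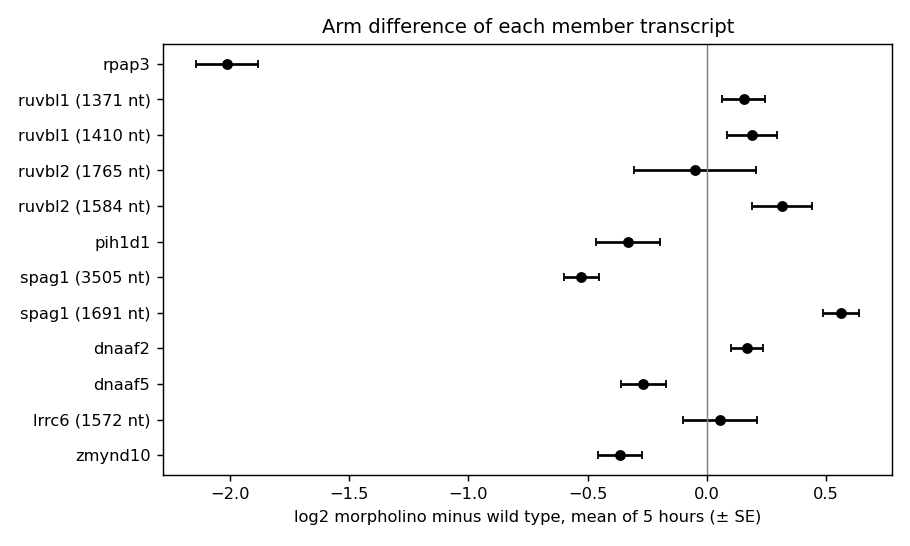
Average log2 difference (morpholino minus wild type over the 5 hours, horizontal axis) for rpap3 and 11 other transcripts, with SE bars; the line marks 0, and the scarce lrrc6 (1380 nt), at 1.91 ± 1.40, is not drawn. rpap3 lies at -2.01 and the others drawn between -0.53 and 0.56, with the spag1 pair at the ends of that range.

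No single transcript of the RUVBL ATPases, the ring of R2TP and also subunits of chromatin remodellers, was called in the main fit. Counts summed per symbol put ruvbl2 just past the threshold, higher by 0.31 ± 0.12 log2 (SE, edgeR adjusted p = 0.0494 over 11886 symbols). Summed ruvbl1 was uncalled, at 0.17 ± 0.08 (edgeR adjusted p = 0.122). The main ruvbl1 transcript (1371 nt) ranged from 113 to 155 CPM in wild type (median 136) and from 124 to 232 CPM in morpholino embryos (median 146). Its average log2 difference was 0.15 ± 0.09 (SE, edgeR adjusted p = 0.205), and that of the 1410 nt ruvbl1 transcript was 0.19 ± 0.11 (adjusted p = 0.181). The highest ruvbl1 value in CPM came from the 16 hpf library of morpholino replicate 3, and the other 14 morpholino libraries were close together. That library had the lowest TMM factor, 0.673, and in TPM it held 152 of ruvbl1 (1371 nt). At 16 hpf the other morpholino libraries held 162 and 160 TPM, and wild type held 152 and 157.

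The main ruvbl2 transcript (1584 nt) was higher in all morpholino libraries than in both wild-type libraries at 4 of the 5 hours, a count not made for all transcripts. It ranged from 159 to 217 CPM in wild type (median 197) and from 191 to 481 CPM in morpholino embryos (median 231), so the arms overlapped over the whole course. The average log2 difference of ruvbl2 (1584 nt) was 0.31 ± 0.13 (SE, edgeR adjusted p = 0.0702), short of the threshold. The 16 hpf library of morpholino replicate 3 held the 481 CPM, and without it the difference was 0.20 with an adjusted p of 0.0134. DESeq2 gave 0.33 with an adjusted p of 0.0456, and edgeR without all of morpholino replicate 3 gave 0.15 (adjusted p = 0.0147). A replicate block in each arm gave 0.30 with an adjusted p of 0.0287, with 7305 called over all transcripts. That block takes differences between replicates out of the spread, so its arm p-values treat the hours as separate samples. The main fit has no replicate term, so its arm p-values also count libraries of the same replicate number as separate samples. In TPM, which the composition of a library moves differently, the 16 hpf library of morpholino replicate 3 held 269. Wild type held 196 and 191 at that hour, and the arms overlapped in TPM at 4 of the 5 hours. With scaling by library size alone the ruvbl2 (1584 nt) difference was 0.12 and the ruvbl1 (1371 nt) difference turned to -0.02, both uncalled. The other ruvbl2 transcript (1765 nt) was scarce, at 1.27 to 7.61 CPM, and its difference was -0.05 ± 0.26 (adjusted p = 0.928).

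pih1d1, the PIH-domain client adaptor of R2TP, ranged from 7.77 to 11.4 CPM in wild type (median 10.04) and from 4.18 to 11.9 CPM in morpholino embryos (median 8.12). Its average log2 difference was -0.33 ± 0.13 (SE, edgeR adjusted p = 0.0750), which missed the threshold. All morpholino libraries were below both wild-type libraries at 14 hpf only in CPM, and at 12, 13, 14 and 15 hpf in TPM. Such hours were not counted over all transcripts. Among morpholino libraries replicate 3 held the lowest pih1d1 value in CPM at 12, 13, 14 and 15 hpf and the highest at 16 hpf. In TPM its 16 hpf library was the lowest of that hour as well, at 12.4 against 18.4 and 19.8 in the other morpholino libraries. Leaving out that 16 hpf library gave -0.35 with an adjusted p of 0.0497, and scaling by library size alone gave -0.48 with an adjusted p of 0.0315. With a replicate block in each arm pih1d1 was also called (-0.33, adjusted p = 0.0149), as were 7305 of all transcripts. That block leaves differences between replicates out of the spread used to test the arms. Without all of morpholino replicate 3 pih1d1 was not called (-0.21, edgeR adjusted p = 0.0966). A replicate block shared by both arms did not call it either (-0.20, edgeR adjusted p = 0.271). Of 36 alternatives, 32 left pih1d1 uncalled and 4 called it.

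The spag1 transcripts moved in opposite directions. SPAG1 is a TPR and GTP-binding protein that takes a place like that of RPAP3 in dynein arm assembly. The 3505 nt spag1 transcript held 72.5 and 72.7 CPM at 12 hpf in wild type, 84.9 and 77.8 at 13 hpf, 82.4 and 83.8 at 14 hpf, 76.0 and 87.0 at 15 hpf, and 80.2 and 79.8 at 16 hpf. In morpholino embryos the 3505 nt transcript of spag1 held 55.7, 45.0 and 39.5 CPM at 12 hpf, 51.3, 51.7 and 42.1 at 13 hpf, 66.7, 57.6 and 44.0 at 14 hpf, 54.3, 63.3 and 60.0 at 15 hpf, and 66.5, 71.0 and 69.7 at 16 hpf. Every morpholino library was below every wild-type library, by most at 12 and 13 hpf and by least at 16 hpf. The average log2 difference of spag1 (3505 nt) was -0.53 ± 0.07 (SE, edgeR adjusted p = 1.78e-04), and its hourly differences were -0.64, -0.75, -0.57, -0.46 and -0.21.

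The 1691 nt spag1 transcript held 28.9 and 32.9 CPM at 12 hpf in wild type, 33.7 and 29.4 at 13 hpf, 31.2 and 30.2 at 14 hpf, 25.8 and 27.3 at 15 hpf, and 26.5 and 29.8 at 16 hpf. In morpholino embryos the 1691 nt transcript of spag1 held 45.9, 37.4 and 49.5 CPM at 12 hpf, 42.9, 43.7 and 52.0 at 13 hpf, 40.1, 36.6 and 49.2 at 14 hpf, 37.7, 41.5 and 48.9 at 15 hpf, and 40.4, 40.5 and 47.6 at 16 hpf. Every morpholino library was above every wild-type library, and morpholino replicate 3 was the highest at each hour. The average log2 difference of spag1 (1691 nt) was 0.56 ± 0.08 (SE, edgeR adjusted p = 1.15e-04), with hourly differences of 0.52, 0.55, 0.45, 0.69 and 0.61. Arms that do not overlap in CPM in either direction were found for 1.29% of all tested transcripts. In TPM both spag1 transcripts overlapped between the arms. For the 1691 nt transcript the morpholino 16 hpf library of replicate 3 fell to 24.8 TPM. Morpholino replicate 2 at 12 hpf held 33.6 TPM of it, also below the wild-type maximum of 35.1. For the 3505 nt transcript morpholino replicate 2 at 16 hpf reached 34.2 TPM against a wild-type minimum of 32.9.

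The authors' deposited table at 13 hpf gives log2 differences of -0.75 for spag1 (3505 nt) with a q-value of 6.37e-04 and 0.55 for spag1 (1691 nt) with a q-value of 0.0395. At 12, 14, 15 and 16 hpf the q-values in the authors' deposited table were 0.0526, 0.236, 0.537 and 0.960 for spag1 (3505 nt) and 0.320, 0.341, 0.101 and 0.958 for spag1 (1691 nt), so neither passed at those hours. At 13 hpf the authors' deposited table has 5.82% of its transcripts at a q-value under 0.05. Summed over both transcripts, spag1 differed by -0.13 ± 0.06 log2 (SE, edgeR adjusted p = 0.0781 over 11886 symbols), so the gene's total missed the threshold.

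The share of spag1 TPM that came from the 1691 nt transcript does not depend on how libraries are scaled. In wild type the share was 46.0% and 49.2% at 12 hpf, 45.9% and 44.7% at 13 hpf, 44.7% and 43.5% at 14 hpf, 42.1% and 40.1% at 15 hpf, and 41.4% and 44.4% at 16 hpf. In morpholino embryos the share was 63.8%, 64.0% and 72.8% at 12 hpf, 64.1%, 64.4% and 72.6% at 13 hpf, 56.2%, 57.6% and 70.5% at 14 hpf, 59.8%, 58.4% and 63.6% at 15 hpf, and 56.5%, 55.0% and 59.3% at 16 hpf. The arms did not overlap, and morpholino replicate 3 had the highest share at every hour. The mean share was 44.2% ± 2.61 (SD, n = 10) in wild type and 62.6% ± 5.81 (SD, n = 15) in morpholino embryos, and by estimated counts it was 27.1% ± 2.09 and 44.1% ± 6.29. The difference of 18.4 percentage points compares with a median absolute change of 2.09 points over 1548 symbols with 2 transcripts, of which 21 changed by more than spag1. In 5 of those 1548 symbols (0.323%) the arms did not overlap in that share. The share was singled out after the values were seen and has no test. Reads that match both transcripts were divided between them by the authors' quantification, so the share rests on the reads that tell the transcripts apart.

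**Figure D3:**
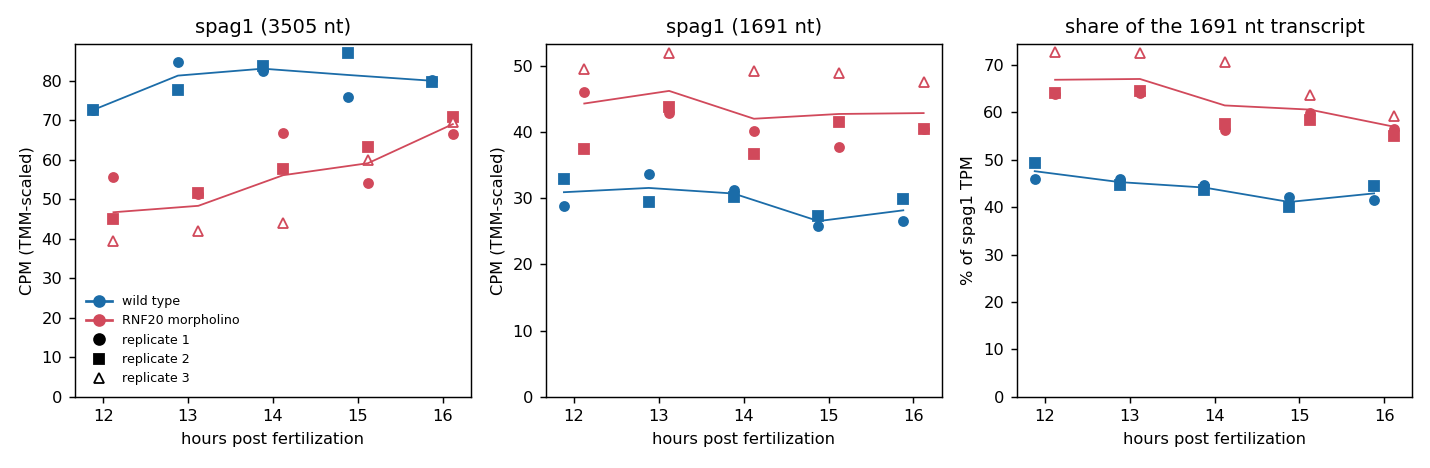
CPM of the 3505 nt (left) and 1691 nt (middle) spag1 transcripts, and the percentage of spag1 TPM from the 1691 nt transcript (right), against hours post fertilization, with 1 point per library and lines through the arm means. The arms do not overlap in any of the panels, and the share runs from 40.1% to 49.2% in wild type and from 55.0% to 72.8% in morpholino embryos.

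dnaaf2, the PIH-domain partner of HSP90 in dynein assembly, ranged from 39.0 to 61.8 CPM in wild type (median 51.3) and from 44.9 to 67.3 CPM in morpholino embryos (median 56.6). The arms overlapped, and the average log2 difference of dnaaf2 was 0.17 ± 0.07 (SE, edgeR adjusted p = 0.0703). It passed the threshold when the 16 hpf library of morpholino replicate 3 was left out (0.14, adjusted p = 0.0416). It also passed by edgeR on counts summed per symbol (0.18, adjusted p = 0.047) and by DESeq2 (0.18, adjusted p = 0.0272). A replicate block in each arm, which leaves replicate differences out of the spread, gave 0.17 (adjusted p = 0.0197). With scaling by library size alone the difference was 0.00. Without all of morpholino replicate 3 dnaaf2 was not called (0.12, edgeR adjusted p = 0.0660). It was also uncalled with a replicate block shared by both arms (0.12, edgeR adjusted p = 0.192). Against wild type 1 hour earlier the difference was 0.06 (edgeR adjusted p = 0.666). Of 36 alternatives, 5 called dnaaf2.

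dnaaf5, a HEAT-repeat protein needed for dynein arms, ranged from 27.9 to 37.5 CPM in wild type (median 30.1) and from 17.9 to 31.1 CPM in morpholino embryos (median 24.3). Replicate 3 was the lowest morpholino library at each hour, and the arms overlapped. All morpholino libraries were below both wild-type libraries at 13 and 16 hpf in CPM, and at 12, 13, 14 and 16 hpf in TPM. Such hours were not counted over all transcripts. The average log2 difference of dnaaf5 was -0.27 ± 0.10 (SE, edgeR adjusted p = 0.0478). This call was lost when any of 17 of the 25 libraries was left out, controls among them, and without all of morpholino replicate 3 the difference was -0.15 (adjusted p = 0.0990).

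zmynd10, which works with LRRC6 and co-chaperones to stabilise dynein heavy chains, fell in morpholino embryos. It held 27.3 and 23.1 CPM at 12 hpf in wild type, 32.0 and 24.8 at 13 hpf, 27.1 and 26.6 at 14 hpf, 25.04 and 23.5 at 15 hpf, and 27.2 and 23.7 at 16 hpf. In morpholino embryos zmynd10 held 22.8, 16.7 and 15.5 CPM at 12 hpf, 19.3, 17.7 and 20.6 at 13 hpf, 25.7, 20.6 and 16.5 at 14 hpf, 19.9, 22.6 and 21.01 at 15 hpf, and 26.1, 20.8 and 17.8 at 16 hpf. The arms were apart at 12, 13, 14 and 15 hpf and overlapped at 16 hpf through morpholino replicate 1. How many of all transcripts are apart at a single hour was not counted. The average log2 difference of zmynd10 was -0.36 ± 0.09 (SE, edgeR adjusted p = 0.0107). It missed the threshold at 14 to 16 hpf alone (-0.26, adjusted p = 0.166).

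lrrc6, the leucine-rich repeat partner of ZMYND10, ranged from 5.94 to 9.64 CPM in wild type (median 8.40) and from 4.58 to 11.1 CPM in morpholino embryos (median 9.35) for its 1572 nt transcript. The arms overlapped, and the average log2 difference was 0.06 ± 0.16 (SE, edgeR adjusted p = 0.836); it was -0.08 with scaling by library size alone. The 1380 nt lrrc6 transcript was scarce, from 0 to 4.67 CPM in wild type (median 0.36). In morpholino embryos its median was 0 CPM, and it reached 20.6 CPM in 1 library, replicate 3 at 16 hpf. Its average log2 difference was 1.91 ± 1.40 (SE, edgeR adjusted p = 0.320), and without morpholino replicate 3 it was -0.42.

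**Figure D4:**
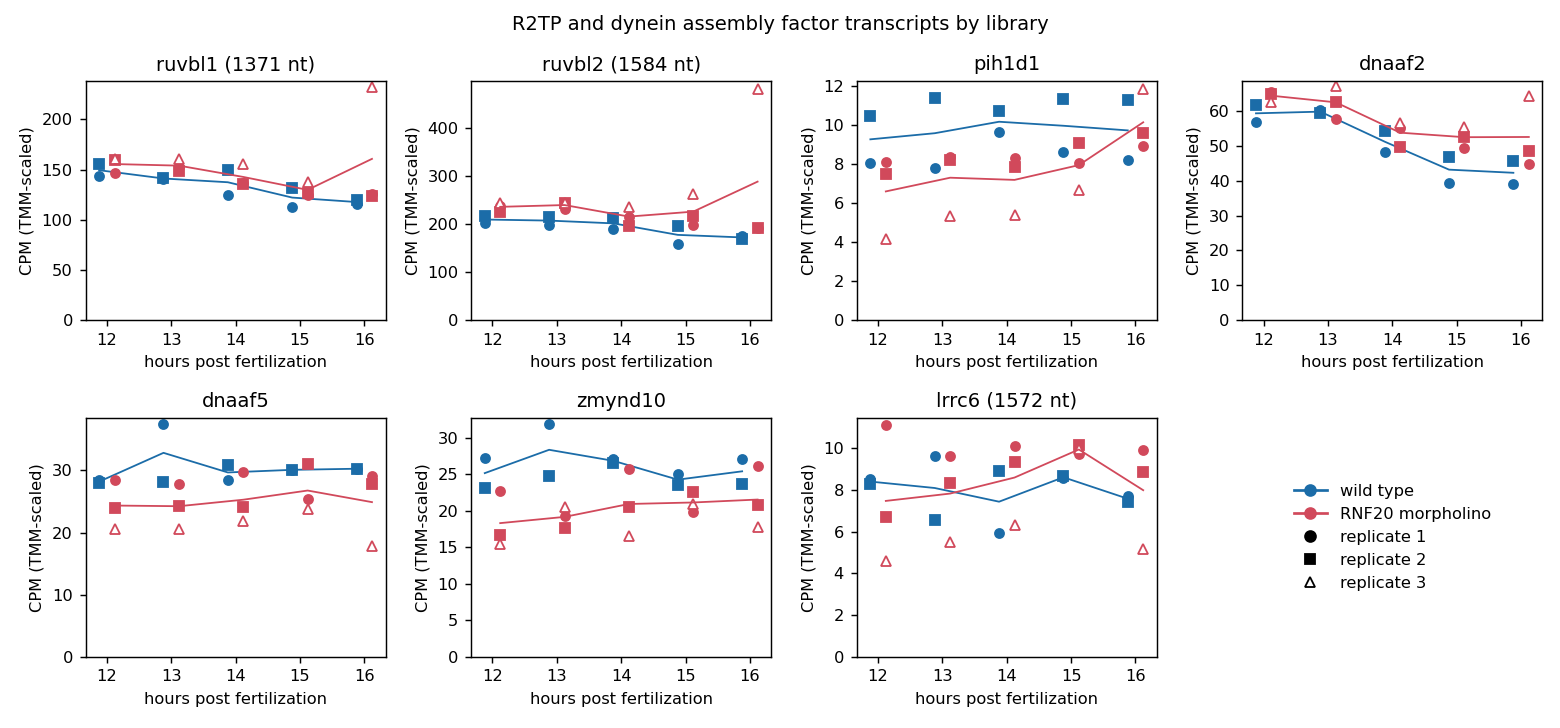
CPM of the main transcripts of ruvbl1, ruvbl2, pih1d1, dnaaf2, dnaaf5, zmynd10 and lrrc6 against hours post fertilization, 1 point per library, with lines through the arm means. In morpholino embryos zmynd10 is below and ruvbl2 above both wild-type libraries at 4 of the 5 hours, a count not made for all transcripts. The arms of all 7 overlap over the whole course. Morpholino replicate 3 at 16 hpf stands high in CPM for ruvbl1 (232) and ruvbl2 (481). In TPM its ruvbl1 value, 152, is the lowest of the morpholino libraries at that hour.

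Beside the lower zmynd10, dnaaf5 and spag1 (3505 nt), the summed TPM of 4 ciliated cell markers (foxj1, mcidas, ccno, tekt2) ranged from 98.4 to 201.7 in wild type and from 110.5 to 216.9 in morpholino embryos. The marker sum of the morpholino libraries was higher than that of both wild-type libraries at 13 hpf (159.9 to 199.9 against 143.7 to 159.7), 14 hpf (159.7 to 186.9 against at most 148.7), 15 hpf (135.2 to 208.3 against 98.4 to 106.7) and 16 hpf (110.5 to 120.2 against 105.4 to 107.5). At 12 hpf the arms overlapped, and the wild-type sum was 159.8 to 201.7, above its level at 16 hpf. Separation at a single hour was not counted over all transcripts. The higher sum lay mostly in mcidas, at 45.0 TPM ± 21.7 (SD, n = 15) against 21.4 ± 22.9 in wild type (SD, n = 10), and ccno, at 40.5 ± 15.3 against 18.1 ± 16.3. Within wild type mcidas ran from 1.15 to 68.2 TPM and ccno from 1.23 to 46.1. foxj1 averaged 44.8 ± 7.98 against 40.1 ± 5.63. tekt2 alone, a gene of the axonemal doublet, was lower on average, at 34.0 TPM ± 14.0 (SD, n = 15) against 53.5 ± 10.7 (SD, n = 10). What part the number of ciliated cells had in the levels of these genes was not tested.

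The change over time was tested in each arm. In wild type, 1 of 13 transcripts (7.69%) had a called slope: dnaaf2 fell by 0.14 log2 units per hour (SE 0.04, edgeR adjusted p = 0.0486), against 2.19% of all transcripts called. The wild-type replicate numbers pair the hours, and with a replicate block in each arm the dnaaf2 slope was -0.15 (adjusted p = 0.00322) while 19.2% of all transcripts were called. In the morpholino arm the called slope was that of spag1 (3505 nt), which rose by 0.14 ± 0.03 log2 units per hour (SE, edgeR adjusted p = 0.0115), again 1 of 13, against 17.7% of all transcripts. Morpholino libraries with the number 1 or 3 also deviated together over the hours. With a replicate block in each arm 3 of the 13 morpholino slopes (23.1%) were called, that of dnaaf2 among them (-0.09, adjusted p = 0.0124). Over all transcripts that fit called 5562 morpholino slopes. Without morpholino replicate 3, 3 wild-type and 4 morpholino slopes of the 13 were called (23.1% and 30.8%), against 6712 and 7509 over all transcripts. Without the 12 hpf library of morpholino replicate 3, the lowest of that transcript, the spag1 slope was 0.12 (adjusted p = 0.0549). The difference in slope between the arms was called by edgeR for 0 of the 13 transcripts and by DESeq2 for 0, and 1 of them, spag1 (3505 nt), had an unadjusted p under 0.05 (0.11 ± 0.05 log2 units per hour, unadjusted p = 0.0477). Over all transcripts edgeR called 0 such differences, with 626 at an unadjusted p under 0.05, and DESeq2 called 16.

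Other genes of the pathway were taken from lists chosen by function with earlier results of these data known. Their counts are set beside 27% called and a median log2 difference of -0.003 over all transcripts. Over all transcripts 4169 were called with scaling by library size alone and 6134 without morpholino replicate 3. Of 7 transcripts of the other R2TP and prefoldin-like subunits, which ride with RPAP3 and RUVBL proteins in a larger assembly, edgeR called 0, with 2 at an unadjusted p under 0.05, and DESeq2 called 0; the median was 0.05. pfdn2, a prefoldin subunit, had 0.39 ± 0.17 (SE, adjusted p = 0.0901) and polr2e, a polymerase subunit found in that assembly, had 0.33 ± 0.15 (adjusted p = 0.102). With scaling by library size alone 1 of the 7 was called lower and the median was -0.13, and without morpholino replicate 3 the calls were 1 higher and 1 lower and the median was 0.03.

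Among HSP90, HSP70 and their co-chaperones, 5 of 17 transcripts were called higher and 3 lower (47.1%), with a median of 0.14. cdc37, which brings kinases to HSP90, was higher in every morpholino library than in any wild-type library, at 95.5 CPM ± 14.0 (SD, n = 15) against 64.5 ± 6.62 (SD, n = 10), a log2 difference of 0.57 ± 0.07 (edgeR adjusted p = 2.75e-05). dnajb1, an HSP70 partner of the HSP40 family, rose by 0.34 ± 0.06 (adjusted p = 0.00170), and ahsa1, ptges3 and dnajb6 were the others called higher. The 3 called lower were chaperone transcripts: the main hsp90ab1 transcript fell by 0.32, hspa8 fell by 0.21, and 1 of 3 hsp90aa1.1 transcripts fell by 1.81. The HSP70-family chaperone hspa4 had 0.17 (adjusted p = 0.155) and the other hsp90ab1 transcript 0.14, neither called. Library-size scaling alone gave a split of 3 higher and 5 lower and a median of -0.09. Without morpholino replicate 3 the calls were 5 higher and 5 lower and the median was 0.02.

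Of 9 transcripts of further dynein assembly factors 1 was called (11.1%), with a median of -0.02. It was ttc12, a TPR protein linked to dynein arms, which fell by 0.49 (SE 0.14, edgeR adjusted p = 0.0189), and cfap300 came next with -0.23 (adjusted p = 0.107). dnaaf3, dnaaf4, pih1d2, ccdc103, cfap298, daw1 and dpcd were not called, and library-size scaling moved the median to -0.18. Among the axonemal dynein chains, the cargo of these factors, 3 of 20 transcripts were called lower and 1 higher (20%), with a median of -0.41. wdr78, an intermediate chain of an inner arm, was lower in every morpholino library, at 12.8 against 22.5 CPM on average, a log2 difference of -0.81 ± 0.14 (edgeR adjusted p = 7.95e-04). The heavy chains dnah7 and dnah11 fell by 0.87 and 0.75, and the light chain dnal4 rose by 0.28. Under library-size scaling dnal4 was not called and 3 transcripts were called lower. Without morpholino replicate 3 the calls were 1 higher and 3 lower and the median was -0.20.

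The R2TP clients that do not belong to cilia were set beside the same 27% of all transcripts, and the RNA polymerase II share was near it. Of 16 transcripts of RNA polymerase II and its assembly factors, 3 were called higher and 1 lower (25%), with a median of 0.28. rpap1, which like RPAP3 associates with RNA polymerase II, fell by 0.44 (SE 0.12, edgeR adjusted p = 0.0168), while polr2a, the largest subunit, rose by 0.45 (SE 0.14, adjusted p = 0.0288), polr2d by 0.73 and gpn2 by 0.60. Scaled by library size alone, the calls were 1 higher and 1 lower and the median was 0.09. Without morpholino replicate 3 the calls were 6 higher and 2 lower and the median was 0.12. Of 17 box C/D snoRNP and U5 snRNP transcripts 3 were called, all higher (17.6%), with a median of 0.31. They were the main transcript of snrnp200, a U5 helicase (0.56 ± 0.14, adjusted p = 0.00982), nop58, a box C/D core protein (0.61 ± 0.20, adjusted p = 0.0354) and nufip1, a box C/D assembly factor (0.43). With scaling by library size alone 2 were called higher and 1 lower, with a median of 0.11. Without morpholino replicate 3 the calls were 5 higher and 0 lower and the median was 0.10.

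Of 10 transcripts of PIKK kinases and their TTT co-chaperone, 2 were called higher and 2 lower (40%), with a median of -0.26. The kinase mtor rose by 0.38 (SE 0.08, edgeR adjusted p = 0.00322) and trrap rose by 0.50, while tti1 of TTT fell by 0.54 (SE 0.16, adjusted p = 0.0207) and the DNA damage kinase atr fell by 0.32. Of 25 transcripts of the chromatin complexes that contain RUVBL1 and RUVBL2, 5 were called higher and 3 lower (32%), with a median of 0.18. INO80E, an INO80 subunit, fell by 0.85 (SE 0.11, edgeR adjusted p = 5.32e-05), and both transcripts of brd8, a TIP60 subunit, fell, the first by 0.32 (SE 0.07, adjusted p = 0.00346). The 5 called higher were ino80b, epc1, dmap1, INO80 and epc2. With scaling by library size alone the calls were 0 higher and 4 lower for the PIKK list (median -0.42) and 2 higher and 4 lower for the RUVBL chromatin list (median 0.02). Without morpholino replicate 3 these medians were -0.08 and 0.06, with 2 higher and 4 lower called in the PIKK list and 7 higher and 4 lower in the RUVBL chromatin list.

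From 11760 transcripts that had a symbol and whose mean log2(CPM + 0.5) was 1 or more, those whose centred means over the 10 groups were closest to those of rpap3 included pex5, klhl25, rprd1a and pdlim7. Their root mean square differences from rpap3 were 0.231, 0.299, 0.333 and 0.343 log2 units. pex5, the import receptor of peroxisomes, went from 4.53 to 1.09 CPM on average, and pdlim7, a PDZ and LIM protein of the actin cytoskeleton, from 191 to 65.2 CPM. Likeness to rpap3 picked these transcripts, so their differences have no test.

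In RefSeq's Xenopus laevis assembly v10.1, rpap3 is annotated as the single copy rpap3.L, as are pih1d1, spag1, dnaaf2 and zmynd10 with 1 copy each, while ruvbl1, ruvbl2 and dnaaf5 have 2. The genes listed next to rpap3.L include atp23 and lrig3 on one side and amigo2 and slc38a4 on the other. atp23, the adjacent one, held 11.8 CPM in wild type and 11.7 in morpholino embryos on average, with a log2 difference of -0.04 ± 0.14 (edgeR adjusted p = 0.881). lrig3 was higher by 0.47 ± 0.12 (adjusted p = 0.0102). AMIGO2 (-1.31 ± 0.41, adjusted p = 0.0285) and SLC38A4 (-1.79 ± 0.51, adjusted p = 0.0180) were lower, from wild-type means of 1.32 and 1.64 CPM. These neighbours were looked at after the rpap3 values were seen.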

How the data were processed

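The authors' deposited tables hold, for each library, kallisto estimated counts and TPM per transcript, per the submitters' processing notes. The authors' deposited hourly sleuth tables hold effects on the natural log scale with p-values and q-values. Versions, options and transcriptome build are not given in the sources used here. Transcript IDs have the Xenopus tropicalis prefix while the labels say Xenopus laevis, so duplicated genes may share a transcript. The sleuth effects correlated with the hourly edgeR log2 differences at -0.9864 to -0.9365 over 5051 transcripts, so their sign was turned.

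Estimated counts (26.6% to 31.1% not whole) were rounded, filtered with filterByExpr by the 10 groups, scaled by TMM and fitted in edgeR 4.0.16 (quasi-likelihood, R 4.3.3), with p adjusted by Benjamini-Hochberg over 16967 transcripts and called under 0.05. DESeq2 1.42.0, DESeq2 size factors, no filter, sums per symbol, blocks, earlier wild-type hours, 14 to 16 hpf alone, no morpholino replicate 3 and each library left out were alternatives. Library-size scaling and the alternatives for the spag1 share and rpap3 ratio were added after seeing the data.

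Genes and lists were chosen with earlier results of these data known. The text names every member, the 2 smallest p of each list, what small counts hold, and the 5 transcripts most like rpap3, of which 1 is not reported here; other names were chosen after values were seen. The labels do not say that replicates are separate clutches, so p-values reflect only how these samples vary, which may be technical. Same-numbered wild-type libraries deviated together (r 0.156 to 0.248 in all 10 pairs of hours), as did morpholino libraries of number 1 (0.137 to 0.54) and 3 (0.239 to 0.648), while number 2 was over 0.1 in 8 of 10 pairs (0.0369 to 0.27). Between arms r was -0.0992 to 0.263, over 0.1 in 4 of 10, so numbers do not pair the arms. The main fit has no replicate term and counts every library as a separate sample, although same-numbered libraries deviated together over the hours.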

Additional observations from a re-analysis of the deposited data

Results flagged for a closer look

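The 1765 nt transcript of ruvbl2 moved in opposite directions at neighbouring hours, with all libraries of an hour on the same side. Its log2 difference, morpholino minus wild type, was -0.9744 ± 0.56 at 13 hpf (SE, edgeR adjusted p = 0.4415) and 1.276 ± 0.60 at 14 hpf (edgeR adjusted p = 0.590). Neither was called. At 13 hpf it held 5.37 and 6.77 CPM in wild type against 1.69, 2.60 and 4.97 in morpholino embryos, and at 14 hpf 1.27 and 3.36 against 4.74, 5.43 and 6.75. The difference between the hours was not tested.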

How the results depend on the processing

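rpap3 kept its direction under all 36 alternatives, from -2.16 to -1.96 log2. It was chosen for its arm difference in these same libraries, so these values are a description only. The average difference was called for 4 transcripts other than rpap3, and for 3 to 7 with 1 library left out, 7 with a replicate block per arm, 2 against wild type 1 hour earlier, 1 against wild type 2 hours earlier and 2 at 14 to 16 hpf only; over all transcripts these counts were 4581, 2844 to 5795, 7305, 1015, 379 and 1387. Called wild-type slopes among the 13 transcripts were 0 with DESeq2 size factors, without the filter and with library-size scaling, 3 without morpholino replicate 3 and 0 to 2 with 1 library left out, where dnaaf2 was lost in 20 of 25. Over all transcripts the called wild-type slopes were 357 with DESeq2 size factors, 253 without the filter and 353 with library-size scaling. They were 1520 by DESeq2, 798 on sums per symbol and 6712 without morpholino replicate 3. They were 3484 with a shared replicate block, 3266 with a block per arm and 8 to 2114 with 1 library left out. Called morpholino slopes among the 13 were 2 by DESeq2 and with library-size scaling, and 4 without replicate 3 and with the shared replicate block. They were 3 with a block per arm and 0 to 3 with 1 library left out. Over all transcripts they were 4217 by DESeq2, 2646 with library-size scaling and 7509 without replicate 3. The shared block and the block per arm gave 5825 and 5562, and leaving out 1 library gave 1013 to 6026. On sums per symbol the value of spag1 (1691 nt) became -0.13 and that of ruvbl2 (1765 nt) 0.3133, since both then stand for the whole gene; the spag1 (3505 nt) wild-type slope became -0.001278. Uncalled values also changed sign: with library-size scaling ruvbl1 (1371 nt) to -0.02428, lrrc6 (1572 nt) to -0.07834 and the rpap3 wild-type slope to 0.01496; without morpholino replicate 3 lrrc6 (1380 nt) to -0.4227 and the rpap3 morpholino slope to 0.01443; against wild type 2 hours earlier ruvbl2 (1765 nt) to 0.1068 and dnaaf2 to -0.09794; and at 14 to 16 hpf ruvbl2 (1765 nt) to 0.2406. With 1 library left out ruvbl2 (1765 nt) ran from -0.2053 to 0.122 and lrrc6 (1572 nt) from -0.02538 to 0.1207. The spag1 share difference was 13.99 points against wild type 2 hours earlier and 17.47 to 18.9 with 1 library left out. The zmynd10 call was lost against wild type 1 hour (-0.34, adjusted p = 0.0649) and 2 hours earlier (-0.33, adjusted p = 0.186), and that of spag1 (3505 nt) 2 hours earlier (-0.37, adjusted p = 0.0554). The cause of these changes was not tested beyond what each alternative leaves out. Few reads lie behind the ruvbl2 (1765 nt) and lrrc6 (1380 nt) values.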
